A study of Mus musculus with 5 samples.

Results

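Transcription factors that steer myeloid progenitors toward macrophages or granulocytes were followed in bone marrow–derived macrophages (BMDMs) after coculture with 4T1 cells, a mouse mammary carcinoma line. The 9 genes were *Spi1*, *Cebpa*, *Cebpb*, *Cebpe*, *Gfi1*, *Irf8*, *Klf4*, *Maf*, and *Zeb2*, chosen by name for their roles, with earlier results of these data known. All 9 had counts in every library and all 9 passed the filter on low counts, among 12576 genes tested. Macrophages came from the marrow of BALB/c mice, were grown with M-CSF, and were cultured for 48 hours with WT 4T1 cells (2 libraries) or with 4T1 cells in which *Adam17* had been knocked out (3 libraries). The 2 cell types shared medium across a porous membrane, so the macrophages of both groups carried an intact *Adam17* gene, and ADAM17, a protease that sheds growth factors from the cell surface, was missing from the cancer cells alone. The 3 *Adam17*-/- cocultures carry the same knock-out designation (2.8) in the labels, and the loss of ADAM17 and any other trait of that line cannot be told apart. The comparison asks how cancer cell ADAM17 alters the macrophage transcriptome. The labels do not say whether the repeats came from separate animals or cultures, so p-values measure the spread between these samples, which may be technical.

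Granulocytes and monocytes share a progenitor, and the balance between a small set of factors decides which way it goes. PU.1 (encoded by *Spi1*) and C/EBPα (*Cebpa*) act early, and a high ratio of PU.1 to C/EBPα favors macrophages. IRF8 and KLF4 act with PU.1 on the monocyte side, c-MAF and ZEB2 act later in macrophage differentiation and identity, and C/EBPβ (*Cebpb*) serves inflammatory responses and emergency granulopoiesis. On the granulocyte side, GFI1 represses monocytic genes, and C/EBPε (*Cebpe*) switches on the genes of secondary granules.

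The libraries held 14658694 to 20788373 counts. Levels are given as CPM, counts relative to library size scaled with TMM factors (edgeR's correction for library composition), and 3 counts, taken as the floor, equaled 0.157 to 0.197 CPM. Counts of each pair of libraries differed by more than sampling noise, and within groups the WT replicates differed most, with a chi-square per degree of freedom of 25.7 against 5.22 to 6.32 among the *Adam17*-/- replicates. The two-sided exact permutation test used for single values doubles the smaller tail, so that its p cannot go under 0.2 with 2 against 3 libraries, and the adjusted p-values for genes come from edgeR's quasi-likelihood test over all genes tested. Passing meant an adjusted p (Benjamini-Hochberg) no higher than 0.05. Group values are means ± SD of the libraries (n = 2 for WT, n = 3 for *Adam17*-/-), and log2 changes are *Adam17*-/- over WT, with their standard error (SE).

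The cells expressed the macrophage program. All 15 genes of a macrophage lineage list were detected, *Csf1r*, the receptor for M-CSF, at 5356 CPM on average in the WT cocultures and 4374 CPM in the *Adam17*-/- cocultures. *Csf1r* did not pass (log2 change -0.29, adjusted p = 0.052 by edgeR). The list summed to 42520 to 43057 CPM in the WT cocultures and 30333 to 32591 CPM in the *Adam17*-/- cocultures. Markers of other cells were also detected. The 15 neutrophil markers, of which 0 lacked counts, summed to 1412 and 1430 CPM with WT 4T1 cells and to 2329 to 2616 CPM with *Adam17*-/- 4T1 cells. A single gene, *Mmp8*, which encodes a granule collagenase, held 913 and 1027 CPM of the WT sums, and the other 14, summed without it after the values were seen, came to 499 and 403 CPM against 1327 to 1514 CPM. In bulk RNA, fewer cells of a type and less RNA per cell cannot be told apart, and the part of the neutrophil RNA in the results below was not tested. Markers of mammary cancer cells summed to 11.0 to 13.9 CPM, nearly all of it *Cdh1*. Of the keratins in that list, *Krt18* had 5 to 8 counts per library, *Krt8* 1 to 3, *Krt14* 0 or 1, and *Krt5* 0, and *Epcam* had at most 1.

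Per transcript length, the members spanned a wide range. FPKM values, which the authors normalized to transcript length and library size, were summed per gene. In the WT cocultures *Spi1* led with 272 ± 39.8 FPKM, followed by *Irf8* with 149 ± 4.29 and *Maf* with 114 ± 22.5. Next came *Cebpb* with 68.4 ± 11.5 and *Zeb2* with 66.9 ± 10.9 FPKM, whose ranges overlapped, so that their order is not set. *Cebpa* stood at 29.2 ± 3.73 and *Klf4* at 18.8 ± 1.03 FPKM. The granulocyte factors were the lowest, *Cebpe* at 2.63 ± 0.113 and *Gfi1* at 0.145 ± 0.0636 FPKM. The *Adam17*-/- cocultures had the same order except that *Zeb2* (61.9 ± 3.46 FPKM, n = 3) and *Cebpb* (60.7 ± 3.09) changed places, again with overlapping ranges. No other pair of neighbors in the order overlapped in either group.

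**Figure D1:**
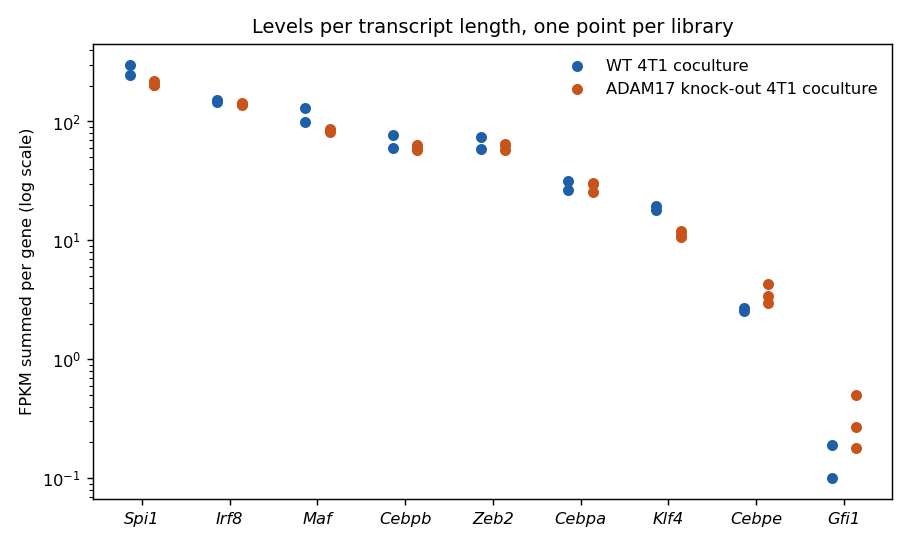
FPKM summed per gene on a log axis for the 9 factors, ordered by their WT mean, with 1 point per library (2 WT in blue, 3 *Adam17*-/- in orange). *Spi1* lies highest at 204 to 300.5 FPKM and *Gfi1* lowest at 0.1 to 0.5 FPKM.

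Of the 9 factors, *Klf4*, *Maf*, and *Spi1* fell in macrophages cocultured with *Adam17*-/- 4T1 cells, *Irf8*, *Zeb2*, *Cebpb*, and *Cebpa* had negative log2 fold changes that did not pass, and *Cebpe* and *Gfi1* had positive ones that did not pass. The 3 members that passed make up 33.3%, where 31.7% of all genes tested passed in either direction and 16.8% passed as lower, so that the share that passed in either direction was near the background. None of them changed by 1 log2 unit, as 4.22% of all genes did while passing. By CPM, all 3 *Adam17*-/- values were under the pair of WT values for 6 of the 9 (66.7%), against 29.7% of all genes tested, and above it for 1, against 28.4%. The groups thus had no overlap for 7 of the 9 (77.8%), where 58.1% of all genes had none. By FPKM these counts were smaller, 4 of the 9 (44.4%) with all *Adam17*-/- values under the WT pair and 5 (55.6%) without overlap, and the share over all genes was not computed on that scale. The median log2 fold change of the 9 was -0.26, beside 0.01 for all genes tested. With edgeR, 0 members passed as higher, 0 of them also at an unadjusted p of 0.05, and 0 with DESeq2. Scaled by library size alone, 3 members passed, again as lower, where 32.6% of all genes passed, 8.56% as lower and 24% as higher.

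**Figure D2:**
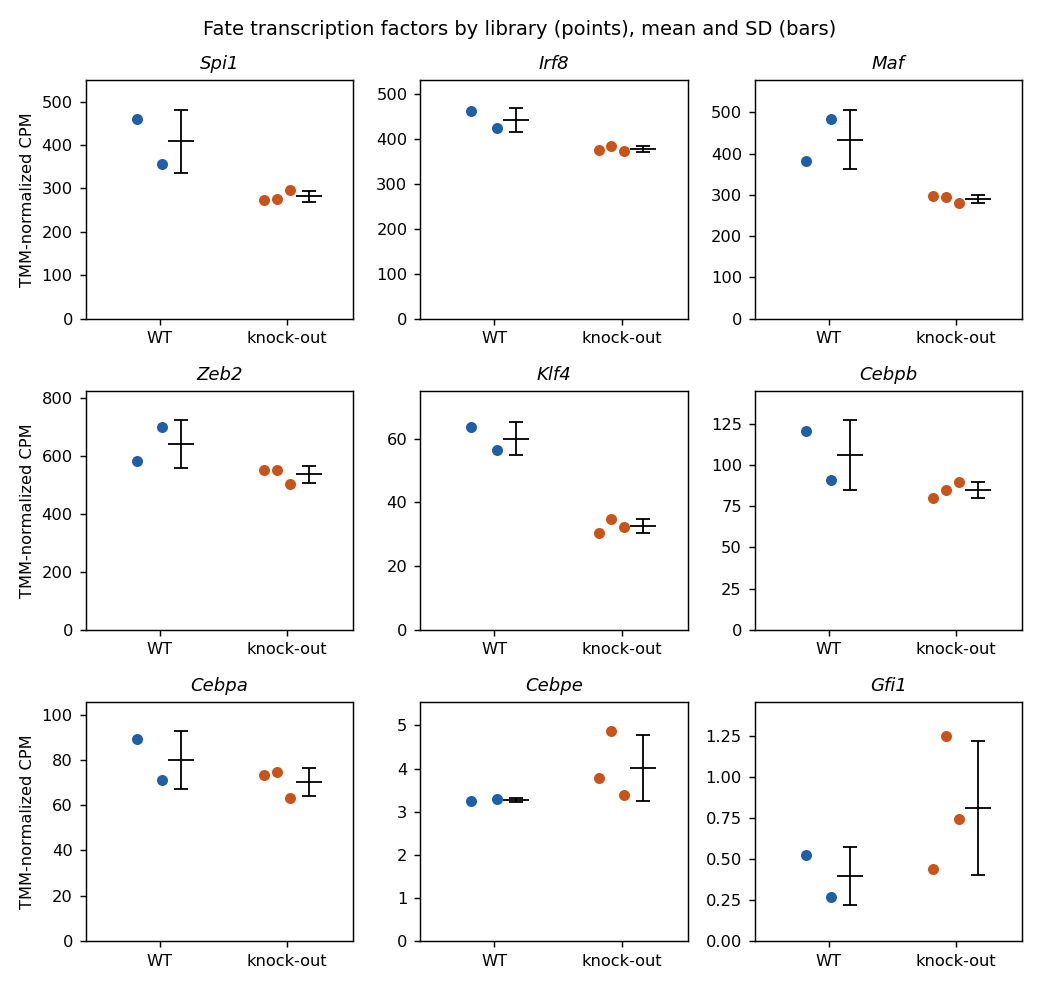
TMM-normalized CPM of each factor in each library (points, 2 WT and 3 *Adam17*-/-), with the mean and SD of the group as a line and bars, on axes that start at 0. *Klf4*, *Maf*, and *Spi1* show *Adam17*-/- libraries well under both WT libraries, while those of *Cebpa* and *Gfi1* overlap.

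*Klf4* (Entrez Gene 16600, chromosome 4, 55527137 to 55532475 of GRCm38) encodes a zinc finger factor needed for monocyte formation that also takes part in alternative activation of macrophages. It had 63.7 and 56.3 CPM in WT replicates 1 and 2, and 30.4, 34.9, and 32.2 CPM in *Adam17*-/- replicates 1, 2, and 3. The groups were far apart, and each group lay close together. The means were 60.0 ± 5.20 and 32.5 ± 2.23 CPM, a log2 change of -0.89 (SE 0.0976, adjusted p = 0.000544 by edgeR), or 1.85-fold lower. Of the 9 factors it moved farthest among those that passed, and its change stayed between -0.97 and -0.69 under the 13 alternatives. It passed under the 8 that kept every library and with each *Adam17*-/- replicate left out.

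A single RefSeq start site is listed for *Klf4*, and the 250 bases before it are printed here because this is the member with the largest change that passed. They lie at chr4:55532476-55532725 of GRCm38.p6, minus strand, and are given 5′ to 3′ with matches to the GC box (GGGCGG or its reverse complement), the site of SP and KLF family factors, in capitals. For comparison, the same stretch is shown before the upstream of the 2 listed start sites of *Gfi1*, at chr5:107725806-107726055, minus strand, as that of the least abundant factor, which acts on the granulocyte side. There the capitals mark a C/EBP match (TTGCNNAA) that overlaps the core of the MAF recognition element (TGCTGA), and matches to the KLF motif (CCACCC) on both strands.
Klf4: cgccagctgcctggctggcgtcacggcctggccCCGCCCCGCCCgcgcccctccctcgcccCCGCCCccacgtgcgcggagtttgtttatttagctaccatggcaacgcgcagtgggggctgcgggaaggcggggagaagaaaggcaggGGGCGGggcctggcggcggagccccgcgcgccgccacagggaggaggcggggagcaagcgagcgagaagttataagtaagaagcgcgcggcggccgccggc
Gfi1: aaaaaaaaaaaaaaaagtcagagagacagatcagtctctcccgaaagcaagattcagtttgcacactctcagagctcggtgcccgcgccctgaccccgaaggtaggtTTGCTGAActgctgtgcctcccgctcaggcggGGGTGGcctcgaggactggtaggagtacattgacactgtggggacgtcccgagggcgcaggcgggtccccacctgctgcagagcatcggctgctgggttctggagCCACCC
The *Klf4* stretch held 4 GC box matches, of which 2 shared 1 base, and 0 matches to the other motifs searched, and the *Gfi1* stretch held 0 GC boxes. The motifs were chosen after the values were seen. A GC box occurred in 32.7% of the 32851 promoter stretches of this length, the C/EBP motif in 9.56%, the KLF motif in 28.1%, and the MAF core in 16.1%. The ETS core that PU.1 recognizes (GAGGAA, in 23.3% of all stretches), the AP-1 motif (TGANTCA, in 6.75%), and the CRE core (TGACGT, in 6.47%) were found in neither. All motifs were searched on both strands, and a match is a run of letters and not a measured site.

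*Maf* (17132, chromosome 8, 115703253 to 115706894) encodes c-MAF, a basic leucine zipper factor of mature macrophages that drives *Il10* and other genes of an anti-inflammatory state. It reached 383 and 485 CPM with WT 4T1 cells and 296, 294, and 279.95 CPM with *Adam17*-/- 4T1 cells. The WT libraries differed from each other by more than the 3 *Adam17*-/- libraries did, yet the groups did not overlap. From 434 ± 71.8 CPM it fell to 290.1 ± 8.86 CPM, a log2 change of -0.58 (SE 0.103, adjusted p = 0.00351 by edgeR). Without WT replicate 1 the change was -0.75 and without WT replicate 2 it was -0.40. *Maf* passed under the 8 alternatives that kept every library and with each *Adam17*-/- replicate left out.

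*Spi1* (20375, chromosome 2, 91082374 to 91115759) encodes PU.1, the ETS factor that myeloid cells need from the progenitor onward. WT replicate 1 had 459.7 CPM, WT replicate 2 357 CPM, and the *Adam17*-/- replicates 273, 276, and 296 CPM. Here too the WT libraries were spread while the *Adam17*-/- libraries lay close together under both. The mean fell from 408 ± 72.6 to 282 ± 12.2 CPM, with a log2 change of -0.53 (SE 0.109, adjusted p = 0.00626 by edgeR). WT replicate 1 carried part of this, since without it the change was -0.35. *Spi1* passed under the 8 alternatives that kept every library and with each *Adam17*-/- replicate left out. The WT replicates thus stood in opposite order for *Spi1* and *Maf*, with replicate 1 higher for *Spi1* and lower for *Maf*.

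*Irf8* (15900, chromosome 8, 120736358 to 120756694), the interferon regulatory factor that directs progenitors to monocytes and dendritic cells and away from granulocytes, was close to the threshold. Its levels were 462 and 424 CPM with WT 4T1 cells and 376, 385, and 373 CPM with *Adam17*-/- 4T1 cells, without overlap. The log2 change was -0.23 (SE 0.0796, adjusted p = 0.0532 by edgeR). It did not pass in any of the 8 alternatives that kept every library, nor with an *Adam17*-/- replicate left out. Without WT replicate 2 the change was -0.29. With libraries scaled by size alone the change was -0.08 (adjusted p = 0.413).

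*Zeb2* (24136, chromosome 2, 44983512 to 45117442) encodes a zinc finger homeobox repressor that maintains macrophage identity. It was the member with the most counts, at 584 and 702 CPM with WT 4T1 cells and 553, 554, and 504 CPM with *Adam17*-/- 4T1 cells. By CPM the groups lay apart, with WT replicate 1 just above the highest *Adam17*-/- library, but by FPKM they overlapped. A log2 change of -0.26 (SE 0.0988, adjusted p = 0.0709 by edgeR) rose in size to -0.39 without WT replicate 1 and shrank to -0.12 without WT replicate 2. *Zeb2* was the 1 member with an overlapping long noncoding RNA gene, *Zeb2os*, which had 156 to 255 counts per library against 8420 to 12974 for *Zeb2*. The library preparation as described names no step that marks strand, so reads of *Zeb2* and *Zeb2os* where they overlap cannot be told apart.

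The C/EBP genes encode basic leucine zipper factors that bind the same motif. *Cebpb* (12608, chromosome 2, 167688915 to 167690432) had 121 and 91.0 CPM with WT 4T1 cells and 80.0, 84.5, and 89.6 CPM with *Adam17*-/- 4T1 cells. WT replicate 2 lay barely above the highest *Adam17*-/- library, and by FPKM the groups overlapped. The log2 change of -0.32 (SE 0.119, adjusted p = 0.0645 by edgeR) passed with DESeq2 (-0.32, adjusted p = 0.0484) and without the filter on low counts (-0.32, adjusted p = 0.0314). It was -0.51 without WT replicate 2 and -0.11 without WT replicate 1. *Cebpa* (12606, chromosome 7, 35119293 to 35121928), needed to form granulocyte-monocyte progenitors, had 89.1 and 71.0 CPM with WT 4T1 cells and 73.4, 74.6, and 63.2 CPM with *Adam17*-/- 4T1 cells, which overlapped. Its log2 change was -0.19 (SE 0.117, adjusted p = 0.246 by edgeR), and it moved from -0.02 without WT replicate 1 to -0.34 without WT replicate 2. Leaving out *Adam17*-/- replicate 3 brought it to -0.09.

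*Cebpe* and *Gfi1* stood at the other end. *Cebpe* (110794, chromosome 14, 54710363 to 54712174) had 62 and 61 counts with WT 4T1 cells and 69, 74, and 64 counts with *Adam17*-/- 4T1 cells, or 3.24 and 3.30 against 3.78, 4.87, and 3.39 CPM. Each *Adam17*-/- library was above both WT libraries, the lowest of them by a margin far smaller than the spread of its group. A log2 change of 0.28 (SE 0.209, adjusted p = 0.323 by edgeR) did not pass in any of 13 alternatives, and without *Adam17*-/- replicate 2 it was 0.15. *Gfi1* (14581, chromosome 5, 107716655 to 107725805) was at the edge of detection, with 10 and 5 counts with WT 4T1 cells and 8, 19, and 14 counts with *Adam17*-/- 4T1 cells. The groups overlapped, *Adam17*-/- replicate 1 lying between the WT libraries. Its log2 fold change of 0.98 had a standard error of 0.549 (adjusted p = 0.200, edgeR) and ranged from 0.20 on the log2(FPKM + 1) scale to 1.52 without WT replicate 1. No difference in *Gfi1* was shown.

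**Figure D3:**
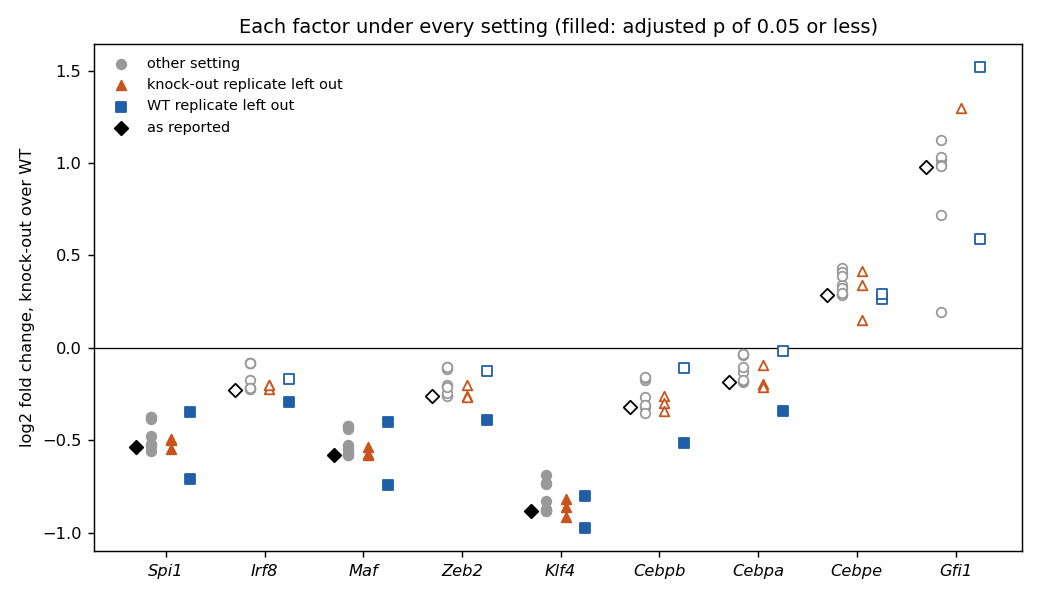
Log2 fold change (*Adam17*-/- over WT coculture) of each factor as reported (black diamonds), with a WT replicate left out (blue squares), with an *Adam17*-/- replicate left out (orange triangles), and under the other settings (gray circles), with filled symbols for an adjusted p of 0.05 or less. *Klf4*, *Maf*, and *Spi1* are filled throughout. The blue squares, each from a fit with 1 WT library, run from -0.35 to -0.71 for *Spi1* and from -0.11 to -0.51 for *Cebpb*.

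The balance between factors was also read within each library, where the scaling of libraries cancels. The ratio of *Spi1* to *Cebpa* in FPKM was 9.44 and 9.19 with WT 4T1 cells and 6.82, 6.77, and 8.55 with *Adam17*-/- 4T1 cells. All 3 were under both WT libraries, replicate 3 the nearest, and the log2 difference was -0.34 (two-sided exact permutation p = 0.2, where the smallest possible is 0.2). The ratio of *Irf8* to *Cebpe* was 59.7 and 53.9 against 41.8, 33.1, and 46.2, again lower in each *Adam17*-/- library, with a log2 difference of -0.50 (exact permutation p = 0.2). For *Cebpb* to *Cebpa* the ratios were 2.40 and 2.27 against 1.93, 2.01, and 2.51, and the groups overlapped (log2 difference -0.13, exact permutation p = 0.6). That difference rested on single libraries, at -0.06 without *Adam17*-/- replicate 1, -0.08 without replicate 2, and -0.25 without replicate 3, while those of the other ratios ranged from -0.45 to -0.29 for *Spi1* to *Cebpa* and from -0.61 to -0.37 for *Irf8* to *Cebpe* with a library left out. No ratio can pass the threshold in this test with 2 against 3 libraries, and the Benjamini-Hochberg adjusted values over the 3 ratios were 0.3, 0.3, and 0.6.

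Each member's counts came from few annotated transcripts. *Klf4*, *Maf*, *Spi1*, and *Cebpe* had a single transcript in the files. The 4 transcripts of *Cebpa* had equal lengths and equal counts, 25% each, as did the 3 of *Cebpb* at 33.3% each, so that the files do not separate them. For *Irf8*, 99.2% to 99.9% of the counts were assigned to NM_008320. *Zeb2* was divided between NM_015753, with 67.5% and 60.3% of its counts with WT 4T1 cells and 49.0%, 64.0%, and 51.9% with *Adam17*-/- 4T1 cells, and NM_001289521, and these shares overlapped between the groups.

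The wider set of 29 other myeloid fate factors was divided. Of 27 tested, 6 passed as lower and 7 as higher, beside 16.8% lower and 14.9% higher among all genes tested. Their median log2 fold change was 0.03. *Trib1*, which encodes a pseudokinase that brings C/EBPα to degradation, fell from 115 ± 5.82 CPM to 60.8 ± 3.81 CPM, a log2 change of -0.92 (SE 0.0876, adjusted p = 0.000352 by edgeR). *Nr4a1*, the orphan nuclear receptor of patrolling monocytes, fell by 1.04 on the log2 scale (adjusted p = 0.00833). Relatives of the members were named outside the rule for naming genes, after their values were seen. *Zeb1* passed as higher (0.74, adjusted p = 0.00752 by edgeR) and *Irf5* as lower (-0.31, adjusted p = 0.0218 by edgeR). *Klf2* and *Klf6* did not pass (-0.39 and -0.06). *Cebpd*, a C/EBP gene of inflammatory responses, fell by 0.41 on the log2 scale (adjusted p = 0.0433, which rose over 0.05 in 9 of 13 alternatives, with a change of -0.18 without WT replicate 1), whereas *Cebpg*, a C/EBP partner without a transactivation domain, rose from 73.9 to 113 CPM (0.61, adjusted p = 0.00256).

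The factors named for their rise, by the size of the change or of the adjusted p, were low transcripts. *Irf4*, a relative of *Irf8* that acts in dendritic cells and alternative activation, rose from 3.11 ± 0.190 to 6.98 ± 0.839 CPM (log2 fold change 1.17, adjusted p = 0.00172, edgeR). *Bach2*, a transcriptional repressor best known from lymphocytes, rose from 14.4 to 24.5 CPM (0.76, adjusted p = 0.00173). *Gfi1b*, the paralog of *Gfi1* that acts in megakaryocytes and red cell precursors, went from 16 and 7 counts with WT 4T1 cells to 27, 30, and 35 counts (1.52, adjusted p = 0.0149). *Myb*, a factor of immature progenitors, went from 17 and 6 counts to 36, 49, and 27 counts (1.82, adjusted p = 0.0193). Without WT replicate 2, which had the lowest counts, the changes were smaller, 1.06 for *Gfi1b* and 1.28 for *Myb*. Without *Adam17*-/- replicate 2, *Myb* did not pass (1.49, adjusted p = 0.0543 by edgeR). The 8 megakaryocyte markers, which summed to 126 and 148 CPM with WT 4T1 cells and 184 to 278 CPM with *Adam17*-/- 4T1 cells with 7 of 8 passing as higher (14.9% of all genes tested did), moved in the same direction as *Gfi1b*, and their part in it was not tested.

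**Figure D4:**
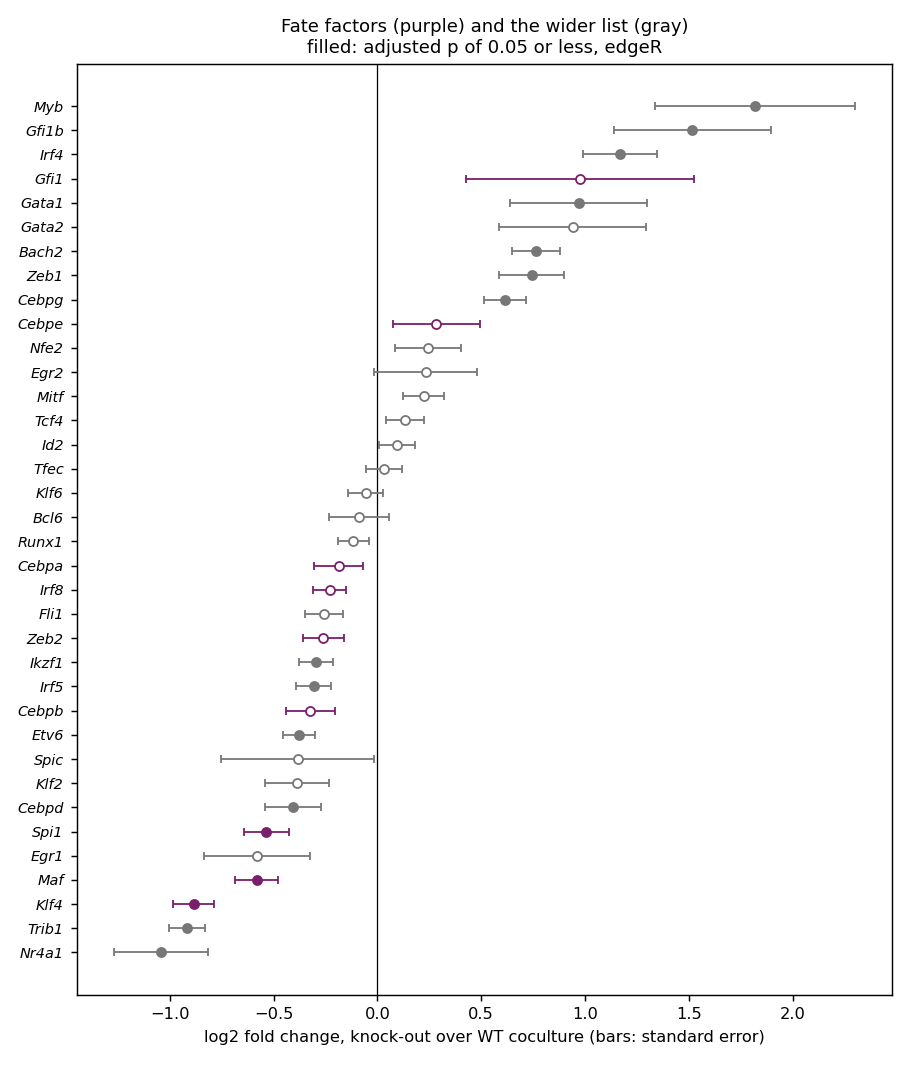
Log2 fold change (*Adam17*-/- over WT coculture) with its standard error for the 9 factors (purple) and the 27 tested genes of the wider list (gray), ordered by value, with filled points for an adjusted p of 0.05 or less in edgeR. *Nr4a1* and *Trib1* lie below *Klf4* at the lower end, and *Myb* and *Gfi1b* at the upper end have wide bars.

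Lineage genes and genes linked to single factors were described by list, with counts set beside the background of 16.8% lower and 14.9% higher among all genes tested. The macrophage lineage list is the one used above as cell markers. Whether a factor acted on any of these genes was not tested. These lists were drawn up with earlier results of these data known, so their directions are no independent evidence. Of 15 macrophage lineage genes, classical targets of PU.1 and its partners among them, 8 passed as lower and 0 as higher (1 higher at an unadjusted p of 0.05 and 1 with DESeq2), with a median log2 fold change of -0.54. *Msr1*, a scavenger receptor, fell from 1334 ± 137 to 799 ± 29.4 CPM, *Adgre1*, which encodes F4/80, from 760.2 ± 18.5 to 479.9 ± 38.4 CPM, and *Cd68* from 1135 to 598 CPM. Their log2 fold changes were -0.74, -0.66, and -0.93. Another 7 genes of the list did not pass, *Csf1r* among them.

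The 10 genes linked to IRF8 were mixed, with 4 passing as higher, 1 passing as lower, and a median of 0.39 over all 10. *Il12b*, a subunit of interleukin-12, had the largest change, from 0.638 ± 0.0601 to 3.85 ± 0.947 CPM (log2 change 2.57, adjusted p = 0.000842 by edgeR), and *Clec9a*, a receptor of dendritic cells that is also among the dendritic cell markers, rose from 2.47 ± 0.280 to 6.42 ± 1.17 CPM (1.38, adjusted p = 0.00176). The gene that fell was *Mpeg1*, which encodes a pore-forming protein of macrophages and is also in the macrophage lineage list (-0.56, adjusted p = 0.00187). *Naip5*, a sensor of flagellin, rose from 125 ± 7.59 to 204 ± 8.56 CPM (0.71, adjusted p = 0.000667) and *Ciita*, the regulator of MHC class II genes, from 24.4 ± 2.66 to 39.1 ± 1.24 CPM (0.68, adjusted p = 0.00162), while *Irf8* itself went from 443 ± 27.0 to 378 ± 6.30 CPM without passing.

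Most granule and surface genes of granulocytes passed as higher, whereas the factors of that lineage did not pass. Those factors had low counts, 5 to 19 per library for *Gfi1* (0.98, SE 0.549) and 61 to 74 for *Cebpe* (0.28, SE 0.209). Not passing therefore does not show that they were unchanged. Of 15 granulocyte lineage genes, 12 passed as higher and 0 as lower (0 lower also at an unadjusted p of 0.05 and with DESeq2), with a median log2 fold change of 1.64. The list shares 14 genes with the neutrophil markers given above. Of the 10 genes linked to C/EBPε, 6 of them also in that list, 8 passed as higher, with a median of 1.24, where *Cebpe* had 0.28. *Mmp8*, the gene of both lists with the most counts, went from 969.9 ± 80.8 to 1068 ± 94.2 CPM without passing (0.14, adjusted p = 0.318). *Ltf*, the lactoferrin of secondary granules, had 20.8 and 18.2 CPM with WT 4T1 cells and 83.4, 107, and 75.3 CPM with *Adam17*-/- 4T1 cells (log2 change 2.18, SE 0.158, adjusted p = 0.000145 by edgeR). *S100a8* and *S100a9* had the smallest adjusted p-values of the granulocyte list (5.15e-05 and 0.000115 by edgeR). *S100a8* rose from 64.6 ± 1.30 to 222 ± 13.3 CPM (1.78) and *S100a9* from 194 ± 30.6 to 646 ± 31.9 CPM (1.73). *Ngp*, another secondary granule protein, rose by 1.97 and *Chil3*, a chitinase-like protein that macrophages also make, by 2.46. *Lcn2* (1.24), *Ly6g* (1.83), *Retnlg* (1.23), and *Stfa2* (1.24) also passed as higher, as did, at 2 to 50 counts per library, *Camp* (2.04) and *Ms4a3* (2.41). Of the primary granule genes, which come before *Cebpe* acts, *Elane* had 9.47 and 5.63 CPM against 14.6, 37.0, and 15.2 CPM (1.54, adjusted p = 0.0188), and without *Adam17*-/- replicate 2, the library with the highest *Gfi1* and *Cebpe*, its change was 1.00. Of the other primary granule genes in the list, *Prtn3* passed (0.78, adjusted p = 0.00261), whereas *Mpo* (1.64, adjusted p = 0.0581) and *Ctsg* (1.57, adjusted p = 0.138) did not. Both were highest in *Adam17*-/- replicate 2, *Mpo* with 63.2 CPM against 14.4 and 18.5 CPM in the other replicates and *Ctsg* with 4.80 CPM against 0.547 and 2.22 CPM, and *Ctsg* overlapped with WT replicate 1 at 1.20 CPM. Whether the higher granule transcripts came from more neutrophil-lineage cells or from more RNA per cell cannot be told apart.

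**Figure D5:**
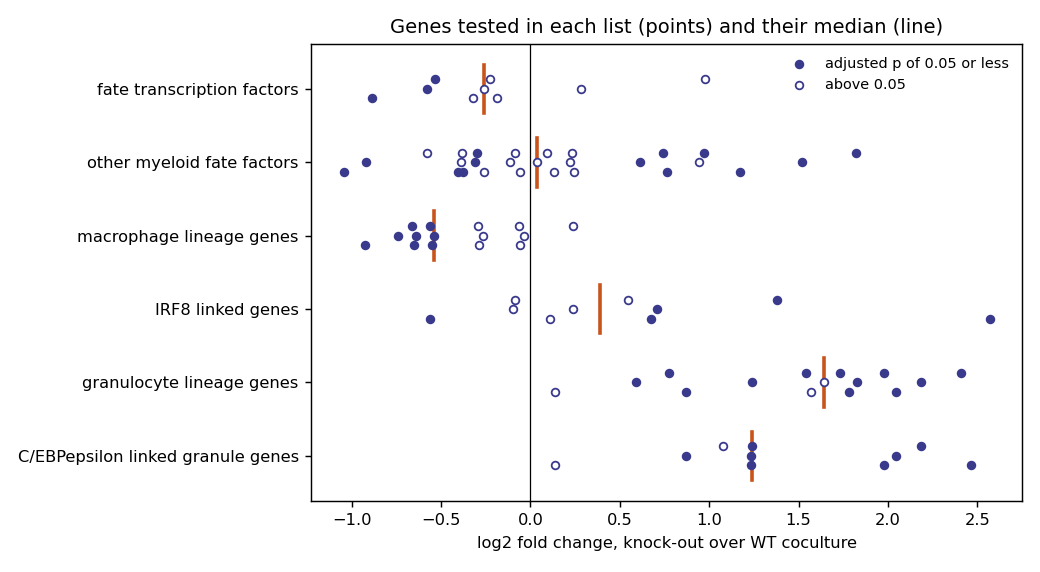
Log2 fold change (*Adam17*-/- over WT coculture) of every tested gene in 6 lists, filled where the adjusted p was 0.05 or less, with the median of each list as an orange line. The medians run from -0.54 for the macrophage lineage genes to 1.64 for the granulocyte lineage genes, and that of the 9 factors is -0.26.

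For each factor, the tested genes with the most similar profile were taken by the Euclidean distance between log2 CPM values over the 5 libraries, each gene centered on its own mean, a description and not a test. Nearest to *Spi1* was *Srf*, which encodes serum response factor, at a distance of 0.0329, then *Cluh* at 0.0515. *Klf4* was nearest to *Piezo1*, which encodes a mechanosensitive channel, at 0.0738 and *Nrp2* at 0.0875, both of which had a similar log2 fold change (-0.89 and -0.86). *Maf* was nearest to *Ccl9* at 0.071 and *Vav3* at 0.0918. *Irf8* lay within 0.011 of *Rps2*, and the low *Cebpe* and *Gfi1* had no gene closer than 0.126 and 0.249.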

How the data were processed

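RNA sequencing of 5 BMDM cocultures was analyzed, 2 with WT and 3 with *Adam17*-/- 4T1 cells. Poly-A RNA was sequenced in pairs on a BGISEQ-500. The authors deposited, per RefSeq transcript and library, expected counts and FPKM values. Their methods name HISAT and Bowtie2 with the mouse genome GRCm38, and the submitters' processing notes list Bowtie2, Bowtie, RSEM, DESeq2, and mm10, with versions not given in the sources used here. For each gene the expected counts were added up and rounded, and 1 row per library without a gene was left out (8.61e-05% of counts at most). In edgeR 4.0.16 (R 4.3.3), genes passing filterByExpr were tested by quasi-likelihood with TMM factors and no covariate. Alternatives were DESeq2 1.42.0, other scalings and filters, limma 3.58.1 on the authors' FPKM as log2(FPKM + 0.1) or log2(FPKM + 1), a replicate block, and each library left out. Ratios were tested with SciPy 1.17.1.

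The members and lists were chosen with earlier results of these data known. A gene and a list of genes linked to it are not reported here, and the gene was left out of the other lists after the values were seen. Named beyond the 9 factors, in each list of fate factors, lineage genes, or linked genes, were the 3 genes with the smallest adjusted p. Any gene of these lists that passed with a log2 change of at least 1 in size was named too. The 2 genes nearest each factor in profile were also taken, and not all of these are printed. *Csf1r*, the keratins, *Epcam*, *Mpeg1*, *Prtn3*, *Mpo*, *Ctsg*, *Mmp8*, *Zeb2os*, and the relatives of members fall outside this rule and were chosen after their values were seen. On simulated counts with 200 genes changed by 1.5 on the log2 scale, among 12432 genes, edgeR called 189 of them and 8 unchanged genes. All 9 factors had log2 changes smaller than 1.5 in size, and how often edgeR calls changes of their size was not tested. Promoter sequences were taken from RefSeq (GRCm38.p6), in which 6 of the 9 factors matched.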

Additional observations from a re-analysis of the deposited data

How the results depend on the processing

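*Klf4*, *Maf*, and *Spi1* kept their direction under all 13 alternatives, and none of the 9 factors changed sign. These 3 passed under the 8 alternatives that kept every library and with each *Adam17*-/- replicate left out. The count of factors that passed ranged from 3 to 6 when a library was left out, the 6 without WT replicate 2. With a log2 change of at least 1 required, the count of factors was 0, where 4.22% of all genes tested passed. At an adjusted p of 0.001 with a log2 fold change of 0.25 it was 1, and the share over all genes was not computed there. Among the other fate factors, 13 passed as reported and 8 to 15 with a library left out, the 8 without *Adam17*-/- replicate 2. The cause of these differences was not tested. The share of all calls that were higher was 46.9% as reported, 57.9% with upper quartile factors, 73.7% with library size alone, and 74.2% and 73.9% in the FPKM fits, which shifted the median of all genes from 0.01 to 0.07, 0.16, 0.15, and 0.11. Over all genes, 3983 passed as reported, 2342 under the replicate block, and 2015 (without *Adam17*-/- replicate 1) to 2445 (without *Adam17*-/- replicate 3) with an *Adam17*-/- replicate left out. Libraries with the same replicate number had correlations of deviations of -0.124 and -0.0504. With 2 WT libraries the deviations of 1 mirror those of the other, so this cannot decide whether the libraries were paired. With the replicate block 3 factors and 9 other fate factors passed. *Gfi1* was not tested where fewer than 10 counts were barred or without *Adam17*-/- replicate 2 or 3. *Gfi1*, at 5 to 19 counts, had the widest error of the 9 (SE 0.549).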

Other observations

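The low counts of *Gfi1* were assigned to NM_001267621 in full in 4 libraries, whereas in *Adam17*-/- replicate 3 this transcript held 5% and NM_010278 95% of the 14 counts. Markers of dividing cells summed to 283 and 288 CPM in the WT libraries and 339 to 355 CPM in the *Adam17*-/- libraries, with 5 of 10 passing as higher and 1 as lower in edgeR, beside 14.9% and 16.8% of all genes tested. Markers of eosinophils, basophils, and mast cells summed to 5.57 and 8.11 CPM against 15.5 to 21.1 CPM, and those of dendritic cells to 10.3 and 13.7 against 15.9 to 20.7 CPM. Fibroblast markers summed to 29.5 and 33.2 CPM in the WT libraries and 24.2, 46.0, and 107 CPM in the *Adam17*-/- libraries, so 1 library carried the high value. Lymphocyte markers summed to 0.379 and 1.73 CPM against 1.42 to 2.30 CPM, with *Cd3g* and *Igkc* at 0 in every library. The macrophages' own *Adam17* had 198 and 199.6 CPM in the WT libraries and 152, 164, and 161 CPM in the *Adam17*-/- cocultures (log2 fold change -0.32, adjusted p = 0.0129, edgeR, which rose over 0.05 in 7 of 13 alternatives). This gene was intact in the macrophages by design and does not check the knock-out in the cancer cells.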
